A study of Mus musculus with 4 samples.

Results

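Plasma cells of the mouse fracture callus and of trabecular bone were described one by one. A barcode was taken as a plasma cell when Jchain, the gene of the joining chain of secreted antibodies, held at least 0.5% of its unique molecular identifiers (UMIs, 1 for each RNA molecule caught) and at least 5 UMIs, with no UMI of Siglech, a gene of plasmacytoid dendritic cells. Barcodes also needed at least 500 UMIs, at least 200 genes and at most 10% mitochondrial UMIs. Of 23216 such barcodes, 67 were plasma cells, 45 of 14451 in callus and 22 of 8765 in trabecular bone. The members were thus chosen by their level of Jchain (chr5:88519809-88527891, minus strand, GRCm38), and that level is a description only.

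The 4 libraries came from male C57BL/6J mice, 20 weeks old when treated, with callus and trabecular bone taken apart at week 2. Per the labels, GC animals carried a subcutaneous slow-release pellet of the glucocorticoid prednisolone (6.25 mg/kg/d) and control animals a placebo pellet. For the fracture model, the study describes daily prednisolone injection instead. Each tissue and treatment was 1 library, and the number of mice behind it is not given in the sources used here, so no test was run and every interval covers counting error only.

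The libraries held 95852254 UMIs in control callus, 64388215 in GC callus, 41239842 and 45876714 in control and GC trabecular bone. A plasma cell held a median of 9570 UMIs in control callus, 8294 in GC callus, 27095 and 33012 in control and GC trabecular bone. Plasma cells were deeper than the other cells in each library, where the median barcode past the filter held 4550, 3532, 6337 and 5725.5 UMIs, in the same order. Pairs of libraries shared 7 to 12 barcodes past the filter, and none of those was a plasma cell.

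Plasma cells are the end stage of the B cell lineage and secrete antibody at a high rate. On the way there, the transcription factors Irf4, Prdm1 and Xbp1 replace the B cell program led by Pax5, and the endoplasmic reticulum (ER) expands. IgA and IgM are assembled into polymers held by the joining chain, whereas IgG is secreted as a monomer. Long-lived plasma cells reside in bone marrow niches, and IgA plasma cells are best known from mucosal tissue.

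The heavy chain constant genes that sorted these cells by isotype end differently, and the end is what the joining chain is attached to. The last bases of the coding sequence of the secreted form, stop codon included, are shown for the 5 isotypes found among the cells, all from the minus strand of chromosome 12 (GENCODE M21, GRCm38), with the cysteine and tyrosine codons before the stop in capitals where present.
Igha (chr12:113258768-113258830): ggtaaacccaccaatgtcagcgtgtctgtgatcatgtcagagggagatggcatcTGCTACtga
Ighm (chr12:113420867-113420929): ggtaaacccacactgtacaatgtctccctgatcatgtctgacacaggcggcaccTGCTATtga
Ighg1 (chr12:113328976-113329038): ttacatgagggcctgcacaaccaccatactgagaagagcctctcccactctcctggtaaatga
Ighg2b (chr12:113306389-113306451): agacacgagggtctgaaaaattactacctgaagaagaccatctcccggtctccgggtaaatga
Ighg2c (chr12:113287389-113287451): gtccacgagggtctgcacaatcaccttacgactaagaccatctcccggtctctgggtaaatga
In Igha and Ighm, 54 more bases follow the letters GGTAAA before the stop codon. In the 3 IgG genes GGTAAA stands directly before it.

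Plasma cells were rare in every library. They made up 0.294% of barcodes in control callus (21 of 7133, 95% Clopper-Pearson interval 0.182% to 0.450%) and 0.328% in GC callus (24 of 7318, 0.210% to 0.488%). In trabecular bone they made up 0.201% in control (8 of 3977, 0.0869% to 0.396%) and 0.292% in GC (14 of 4788, 0.160% to 0.490%). The GC over control ratio of shares was 1.11 in callus (exact interval 0.594 to 2.10) and 1.45 in trabecular bone (0.569 to 3.999), and both intervals include 1. Callus over trabecular bone, the ratio was 1.46 in control (0.623 to 3.82) and 1.12 in GC (0.557 to 2.35). With 1 library per tissue and treatment, these intervals cover counting error only, so a difference of plasma cell share between treatments or tissues was not tested.

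B cells, taken as barcodes with at least 0.1% and at least 3 UMIs of Cd79a and Cd79b, the signalling chains of the B cell receptor, numbered 373 in control callus, 129 in GC callus, 312 and 14 in control and GC trabecular bone. Their GC over control ratio of shares was 0.337 in callus (0.274 to 0.413) and 0.0373 in trabecular bone (0.0201 to 0.0635). Per B cell there were 0.0563 plasma cells in control callus (0.0344 to 0.0873) and 0.186 in GC callus (0.115 to 0.289). In trabecular bone the value was 0.0256 in control (0.0110 to 0.0512) and 1 in GC (0.442 to 2.26). The intervals of control and GC did not overlap in either tissue, while those of the plasma cell share itself did. Treatment and library cannot be told apart here.

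The rule itself sets plasma cells apart by their share of Jchain. The plot of Jchain share against UMIs shows how near other barcodes came to the threshold. The lowest plasma cell was at 0.662% in control callus, 0.580% in GC callus, 0.952% and 0.582% in control and GC trabecular bone. Among barcodes with at least 5 Jchain UMIs, the highest one left out was at 0.370% in GC callus, 0.244% and 0.216% in control and GC trabecular bone, and control callus had none. Of those left out, 3 were rich in immunoglobulin, at 10% of UMIs or more, and all 3 were IgG2c cells. A control trabecular barcode with 54002 UMIs, of which 61.2% were immunoglobulin, had 25322 UMIs of Igkc but only 132 of Jchain. The other control trabecular barcode held 71.2% immunoglobulin in 24346 UMIs, and a GC callus barcode held 27.4% in 18388 UMIs. A rule on Jchain thus left out cells that a rule on immunoglobulin would take. Under the cut of 10%, barcodes left out included other isotypes. Examples are an IgG1 barcode of control trabecular bone (9.05% immunoglobulin) and an IgM barcode of GC trabecular bone (4.08%, with 127 Mzb1 UMIs).

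**Figure D1:**
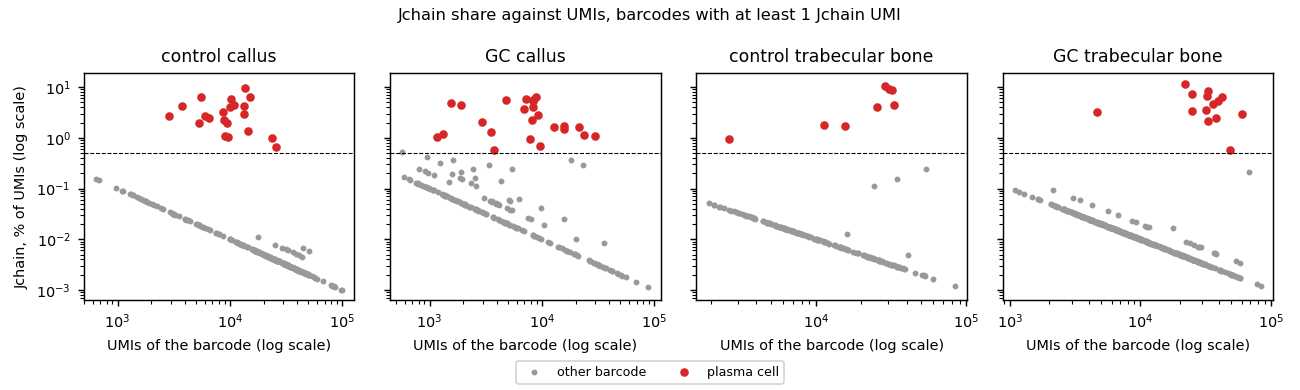
Each panel is a library and each point a barcode past the filter with at least 1 Jchain UMI, with its UMIs on the x axis and the share of Jchain in % on the y axis, both on log scales. Plasma cells (red) lie above the dashed line at 0.5%, where GC callus also has 1 barcode with 3 Jchain UMIs, under the minimum of 5. The lower grey band holds barcodes with 1 Jchain UMI, and every library has barcodes between that band and the line. In control callus these have 2 or 3 Jchain UMIs.

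Jchain was at 31945 CPM (UMIs of a gene scaled to a common total of all UMIs) over the plasma cells of control callus, 23839 in GC callus, 64873 and 45983 in control and GC trabecular bone. Neutrophils, taken as barcodes with at least 5% of neutrophil marker UMIs, do not make it and had 5.48, 3.37, 6.63 and 10.7 CPM of Jchain in the same order. Plasma cells held 93.9%, 93.0%, 90.4% and 90.9% of all listed Jchain UMIs in each library, where GC callus lists called barcodes only and the others list every barcode. Barcodes under 100 UMIs, which hold free RNA, had 40.01 CPM in control callus, 183 in the control and 441 in the GC library of trabecular bone, and GC callus lists no such barcodes.

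Of 4 markers that the rule did not use, 3 were present in nearly all of the cells. Mzb1, an ER chaperone of the antibody-secreting lineage, had UMIs in 65 of 67 cells, and so did Xbp1, the transcription factor that expands the ER. Igkc, the kappa constant gene, had UMIs in 66 cells, and Sdc1, which encodes the surface proteoglycan CD138, in 50. As background, neutrophils at medians of 1361 to 6214 UMIs had a UMI of Igkc in 4.95%, 3.01%, 40.8% and 59.0% of barcodes, and of Xbp1 in 11.3%, 14.2%, 19.8% and 25.8%, in the order control callus, GC callus, control and GC trabecular bone. Their shares were 0.137% to 0.702% for Mzb1 and 0.0626% to 0.824% for Sdc1, so a UMI of Igkc or Xbp1 alone says little of a single cell. The B cell marker Ms4a1 had UMIs in 8 cells, and Pax5 in none. The label was checked on the cells as a group and not cell by cell.

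A few cells carried markers of other cell types, and no doublet caller was run. In 6 cells, all of GC callus, markers of bone and cartilage cells such as Col2a1, Spp1 and Ibsp held more than 1% of UMIs. Neutrophil markers passed 1% in 3 cells and erythroid markers in 1, all in trabecular bone. Among the GC callus cells, 4 combined 8.56% to 18.8% skeletal markers with only 1.16% to 4.58% immunoglobulin, in 1168 to 3793 UMIs. These 4 had 5 to 65 UMIs of Igha and 16 to 66 of Iglc1, a lambda constant gene, but 1 to 5 of Igkc, and 2 of them had no Mzb1 UMI. A control trabecular cell of 2625 UMIs had 15.4% neutrophil markers beside 68 UMIs of Ighg2c and 72 of Iglc1. These 5 cells, each under 10% immunoglobulin with at most 3 Mzb1 UMIs, are members by the rule alone. Without them, GC callus held 20 plasma cells (0.273% of barcodes, 0.155 per B cell) and control trabecular bone 7 (0.176%, 0.0224 per B cell), and the GC over control ratio of shares was 0.928 in callus and 1.66 in trabecular bone. IgA cells were then 17 of 20 and 5 of 7, and IgG2c cells 2 of the 7.

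Over all plasma cells of a library, the 9 neutrophil markers summed to 154 CPM of non-immunoglobulin UMIs in control callus, 190 in GC callus, 48113 and 14859 in control and GC trabecular bone, led by S100a8 and S100a9. The 6 erythroid markers summed to 123, 144, 2744 and 13627 CPM, led by Hbb-bs. Single cells weighed on the trabecular sums. In control, neutrophil markers held 7.88% of a cell of 33017 UMIs and 15.4% of a cell of 2625 UMIs, and at most 0.447% of any other. In GC they held 3.63% of a cell of 60827 UMIs and at most 0.383% of any other. Erythroid markers held 7.35% of a GC cell of 31983 UMIs and at most 0.151% of any other GC cell. The 8 skeletal and cartilage markers, which the callus stroma expresses, summed to 4072, 14895, 84.9 and 14.4 CPM, led in callus by Col2a1. The T and NK cell markers (18.4 to 34.5 CPM) and endothelial markers (24.6 to 28.8 CPM) were near 0 in every library, with Cd3g, Nkg7, Cdh5, Emcn and Kdr at 0. Monocyte and macrophage markers stood at 18.4 and 51.8 CPM in callus and at 792 and 1179 CPM in trabecular bone, led by Lyz2 there, which neutrophils also express. Markers of plasmacytoid dendritic cells summed to 1149, 995, 990 and 791 CPM, led by Tcf4 in callus and Bst2 in trabecular bone. Klk1 was at 0, and Siglech was at 0 by the rule that chose the cells. The part of these markers in the levels below was not tested, except where values without the cells are given.

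Among the plasma cells that the rule chose, most were IgA cells in both tissues. The rule used Jchain, and the immunoglobulin-rich barcodes it left out were IgG2c cells, 2 of control trabecular bone and 1 of GC callus. The IgA shares below hold for the chosen cells only. By the heavy constant gene with at least 80% of a cell's heavy constant UMIs, 53 of 67 cells were IgA, which includes 18 of 21 in control callus (85.7%, 63.7% to 97.0%) and 21 of 24 in GC callus (87.5%, 67.6% to 97.3%). In trabecular bone, 5 of 8 control cells (62.5%, 24.5% to 91.5%) and 9 of 14 GC cells were IgA. Summed over treatments, IgA cells were 39 of 45 in callus (86.7%, 73.2% to 94.9%) and 14 of 22 in trabecular bone (63.6%, 40.7% to 82.8%), and the difference was not tested. IgM, the first isotype made, accounted for 2 cells in control callus and 2 in GC trabecular bone. IgG cells numbered 9, with IgG2c in 3 control cells and 1 GC cell of trabecular bone, IgG2b in 1 of control callus and 2 of GC trabecular bone, and IgG1 in 2 of GC callus. No cell was IgD, IgG3 or IgE, which among 24 cells of GC callus allows a share of up to 12.5%, taking 3 cells as the limit of a count of 0. A GC callus cell was mixed, with 70.7% of its heavy constant UMIs from Igha and the rest from Ighg2c.

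**Figure D2:**
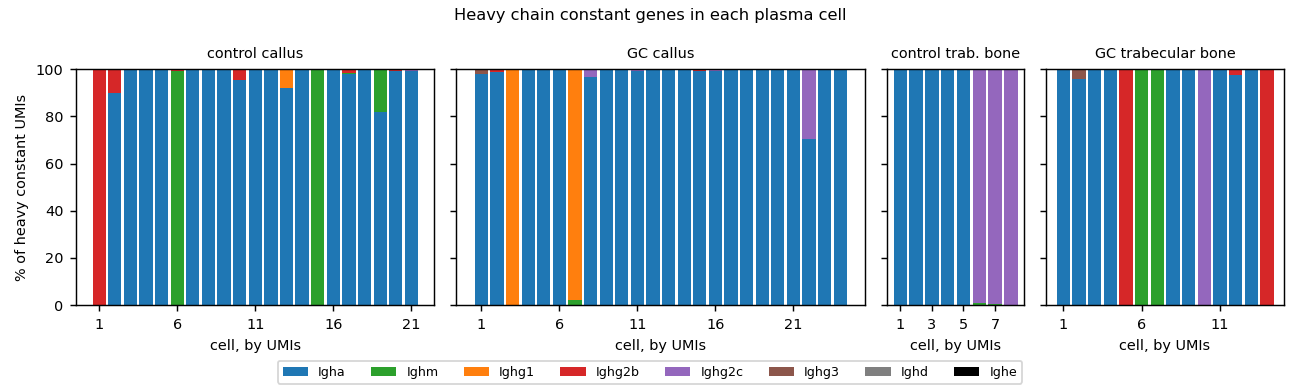
Each bar is a plasma cell, numbered within its library from the most UMIs to the fewest, and shows the % of its heavy chain constant UMIs from each constant gene. Nearly every bar has 1 color, and Igha (blue) fills 53 of 67 bars to at least 80%.

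The isotype of a cell was nearly exclusive. The leading constant gene held a median of 99.98% of heavy constant UMIs over the 66 assigned cells, at least 95% in 63 of them and 100% in 32. The lowest was 81.9% in a control callus cell, where Ighm held the rest. The 9 IgG and 4 IgM cells held few or no UMIs of Igha. In control trabecular bone, for example, the pair of IgG2c cells with 2440 and 1765 UMIs of Ighg2c had 1 and 0 UMIs of Igha. Among the IgG and IgM cells the lowest share of the leading gene was 97.8%.

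Jchain in the IgG cells follows from the rule, which took no cell without it, and it is not set against the IgG ends printed above. As a description, since the rule used Jchain, its median share was 3.40% of UMIs in 53 IgA cells, 3.74% in 4 IgM cells and 1.69% in 9 IgG cells. In control trabecular bone the IgA median was 8.78% and the IgG median 1.69%, and in GC trabecular bone 6.45% and 3.22%. The rule takes no cell under 0.5%. The 3 cells of at least 10% immunoglobulin that it left out were all IgG2c, with Jchain at 0.111% to 0.359%, and barcodes left out under that cut included IgG1 and IgM.

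Kappa was the light chain of 56 cells and lambda of 10, with 1 mixed. Kappa cells were 18 of 21 in control callus, 19 of 24 in GC callus, 6 of 8 in control trabecular bone and 13 of 14 in GC trabecular bone. Of the 10 lambda cells, 4 had under 6% immunoglobulin and were among the 5 cells with other markers described above. Without those 5 cells the kappa share of GC callus was 95% instead of 79.2%. B cells assigned to kappa or lambda were kappa in 95.5%, 94.7%, 88.2% and 100% of cells, in the order control callus, GC callus, control and GC trabecular bone. These shares rest on 126 kappa and 6 lambda cells, 36 and 2, 195 and 26, and 14 and 0. Another 241, 91, 91 and 0 B cells were mixed or unassigned. The part of free Igkc RNA in these calls was not tested.

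Plasma cells of trabecular bone carried more immunoglobulin than those of callus. Over the V, D, J and C genes of heavy and light chains, the share of a cell's UMIs ranged from 7.15% to 48.5% in control callus, with a median of 21.8%. It ranged from 1.16% to 48.0% in GC callus (median 21.3%). In control trabecular bone it ranged from 5.49% to 67.9% (median 47.7%) and in GC trabecular bone from 6.70% to 82.4% (median 59.8%). The tissues overlapped, but 16 of 22 trabecular cells lay above the highest callus cell, and 19 of 22 were above 40% against 9 of 45 in callus. Without the 5 cells with other markers, the median was 26.0% in GC callus, where the lowest cell was then at 7.74%, and 51.0% in control trabecular bone, where it was at 41.2%.

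**Figure D3:**
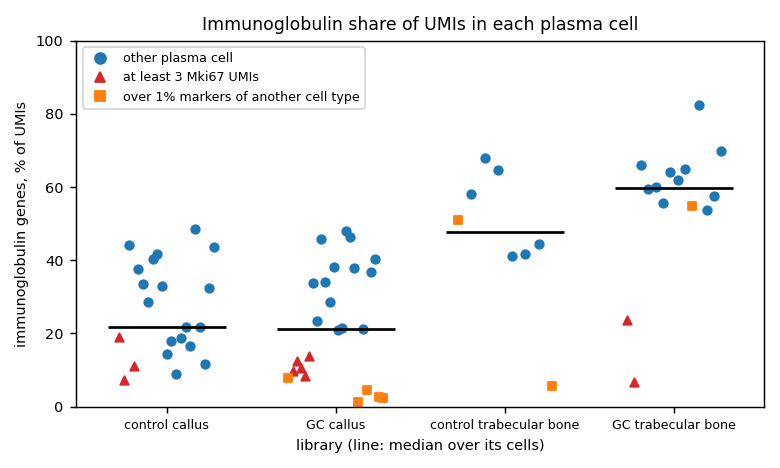
Each point is a plasma cell, with the % of its UMIs from immunoglobulin genes on the y axis by library, and black lines are medians (21.8%, 21.3%, 47.7% and 59.8%). Cells with at least 3 Mki67 UMIs (red triangles) lie at or below 23.5%, and orange squares mark other cells with over 1% markers of another cell type.

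The difference was in immunoglobulin more than in other transcripts. The median count of UMIs outside immunoglobulin genes was 7060 in control callus, 4954.5 in GC callus, 7967.5 and 11367 in control and GC trabecular bone. The heavy constant UMIs had medians of 540, 551, 3333.5 and 3365.5 in the same order. Summed over cells, immunoglobulin held 24.8%, 19.8%, 54.1% and 51.2% of plasma cell UMIs, against 0.593%, 0.488%, 0.934% and 1.02% in B cells. Tissue and library preparation cannot be told apart in these values, as each tissue and treatment was 1 library.

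Light chain constant UMIs outnumbered heavy chain ones in most cells. The heavy over light ratio had a median of 0.402 in control callus, 0.456 in GC callus, 0.353 and 0.270 in control and GC trabecular bone. The lowest was an IgM cell of control callus with 24 heavy constant UMIs and a ratio of 0.0132. The highest, 1.32, was a GC callus cell with 25 heavy constant UMIs and 18.8% skeletal markers. Without the 5 cells with other markers the highest was 1.03, in control callus.

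The antibodies of these cells used many different variable (V) genes, which encode the antigen-binding part of each chain. A leading V gene, with at least 3 UMIs and at least 60% of a chain's V UMIs, was found for both chains in 45 cells, which held 42 distinct pairs. Igkv1-117 led the light chain in 10 cells, and Ighv1-18, Ighv1-64 and Ighv3-6 each led the heavy chain in 4. Only 6 cells shared both genes with another cell. The 2 IgG2c cells of control trabecular bone named above shared Ighv1-53 and Igkv4-55. Ighv1-53 is near in sequence to Ighv1-55, with 335 of 351 bases identical (95.4%), so its reads may be split. In GC trabecular bone, Ighv3-6 and Igkv6-32 were shared by an IgA cell and an IgG2c cell. Ighv14-3 and Igkv1-117 were shared by IgA cells of control callus and GC callus, which come from different mice. The junctions between V and J genes were not read, so clones were not determined.

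Some plasma cells were cycling. With each cell thinned to 1000 UMIs, at least 2 UMIs over 8 cell cycle genes were found in 3 of 21 cells in control callus (14.3%, 3.05% to 36.3%), 2 of 24 in GC callus (8.33%, 1.03% to 27.0%), 0 of 8 in control trabecular bone and 1 of 14 in GC trabecular bone (7.14%, 0.181% to 33.9%). The 0 of 8 allows a share of up to 37.5% by the same limit of 3 cells. Without thinning, 7, 9, 1 and 5 cells passed, in the same order. Mki67, the proliferation marker, was at 436 CPM in control callus, 639 in GC callus, 0 and 153 in control and GC trabecular bone, and Top2a, a DNA topoisomerase of dividing cells, at 197, 161, 28.3 and 192 CPM. Over a list of 20 cell cycle genes, plasma cells summed to 3133, 3245, 778 and 3461 CPM.

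Cells with at least 3 Mki67 UMIs held less immunoglobulin at the median than the others, some of which lay lower still. In callus, 8 such cells had 7.15% to 19.0% immunoglobulin (median 10.8%), against a median of 28.7% in the other 37 (1.16% to 48.5%). Their median was 3525 genes against 1961, and they had at least 12772 UMIs. In trabecular bone, 2 such cells had 6.70% and 23.5% immunoglobulin, against a median of 58.8% in the other 20. Isotype was IgA in 6 of the 8 callus cells and in both trabecular cells. These are the larger cells, in which a given number of Mki67 UMIs is easier to reach, and the part of depth was not tested.

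Plasma cells and B cells of callus were then compared gene by gene. Levels are CPM of non-immunoglobulin UMIs (Jchain left out too), and log2 ratios were taken after adding 5 CPM, over genes with at least 50 UMIs in both classes together. A gene could thus pass this minimum through 1 class alone, which bears on the counts and medians of each list below. Of 3424 genes in control callus, 12.3% were at least 2-fold higher in plasma cells and 28.4% at least 2-fold lower. In GC callus 20.9% of 1375 were higher and 19.4% lower. Median log2 ratios over all genes were -0.39 and -0.11. Scaled to all UMIs, immunoglobulin included, the medians were -0.82 and -0.45, and the shares 7.01% higher and 43.0% lower in control and 14.4% and 29.3% in GC callus. Trabecular bone had 8 and 14 plasma cells, under the 15 set for ratios, and its levels are given without them. Cd79a and Cd79b chose the B cells, so their own ratios are not findings.

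**Figure D4:**
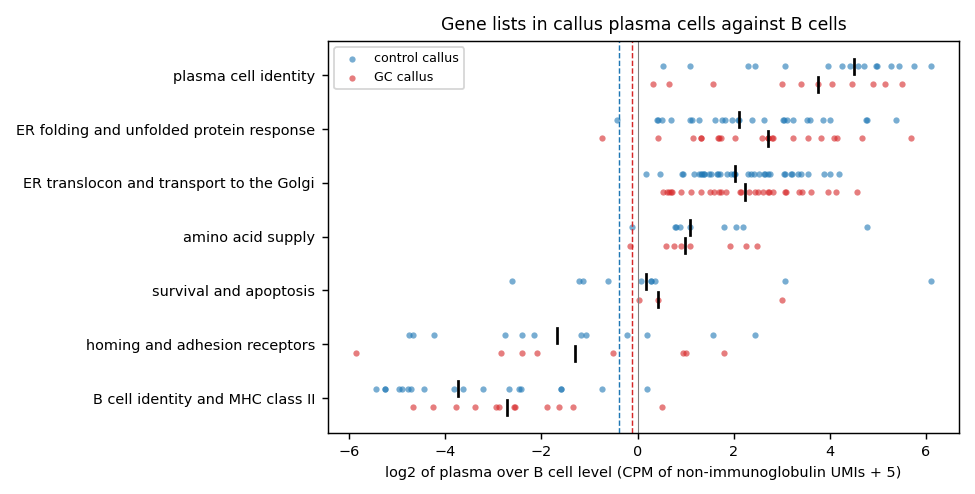
Each point is a gene of the list named on the y axis, with its log2 ratio of plasma over B cell level in control callus (blue) and GC callus (red) on the x axis. Black bars are list medians and dashed lines the medians over all genes (-0.39 and -0.11), and plasma cell identity, ER folding and ER translocon genes lie mostly to the right of them.

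Genes of plasma cell identity were higher in plasma cells throughout. In control callus all 16 measured of 19 were higher and 15 were at least 2-fold higher (median log2 ratio 4.50). In GC callus 9 of 11 were at least 2-fold higher (median 3.76). Some of these genes passed the minimum through plasma cells alone, such as Ly6c2, with 58 UMIs against 3 in control and 126 against 3 in GC callus. The filter thus bears on these counts and medians. With no minimum, all 19 genes summed to 16615 CPM against 1121 in B cells of control callus, and to 12950 against 1000 in GC callus. Xbp1 was at 2199 CPM against 66 in control B cells and at 2934 against 78 in GC B cells. Mzb1 was at 5024 against 188 and 2819 against 90. Irf4, which acts in B cell activation as well, differed least after Pou2af1, a coactivator of the whole lineage, with log2 ratios of 1.10 and 0.53 in control callus. Tnfrsf17, the BCMA receptor for plasma cell survival signals, had 55 UMIs in 21 plasma cells of control callus and 0 in 373 B cells, which makes it at least 101-fold higher against a floor of 3 UMIs over the B cells.

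In trabecular plasma cells the same genes were present. Mzb1 was at 3183 CPM in control and 4582 in GC trabecular bone, and Xbp1 had UMIs in all 22 cells. Tnfrsf17 was at 439 and 221 CPM, with 0 UMIs in trabecular B cells. Txndc5, an ER disulfide isomerase, was at 3834 and 2833 CPM in trabecular plasma cells, beside 1450 and 1059 in callus. Prdm1, the repressor of the B cell program, was at 178 and 213 CPM in callus and at 142 and 129 in trabecular bone, with overlapping intervals.

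The B cell program was low in plasma cells. Of 18 genes of B cell identity and MHC class II measured in control callus, 16 were at least 2-fold lower (median log2 ratio -3.73). With the 7 genes at 0 UMIs in plasma cells set at their bound, the median was -2.81. The minimum of UMIs was on both classes together, so these 7 genes passed it through B cells alone. The filter thus bears on the count and the median. With no minimum, all 22 genes of the list summed to 4742 CPM in plasma cells of control callus and 21401 in its B cells. In GC callus 11 of 12 measured genes were at least 2-fold lower (median -2.72). Pax5 had 190 UMIs in control B cells and 0 in plasma cells, at least 11.5-fold lower. H2-Aa, an MHC class II chain, was at 67.6 CPM against 2777 in control and at 173 against 3410 in GC callus. Cd74, the MHC class II invariant chain, was less reduced, at 2512 CPM against 7632 in control callus. Of 10 B progenitor genes, 3 were measured in control callus. Vpreb1 and Igll1, parts of the surrogate light chain, had 0 UMIs in plasma cells, at least 8.33-fold and 6.52-fold lower. They also passed the minimum through B cells alone. Vpreb3 had a log2 ratio of -0.96, against -0.01 in GC callus. Ralgps2 was the only one of the 18 B cell genes that was higher, with log2 ratios of 0.19 and 0.51.

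Genes of ER folding and the unfolded protein response were mostly higher in plasma cells. In control callus, 22 of 27 were at least 2-fold higher in plasma cells (median log2 ratio 2.10), and in GC callus 19 of 21 (median 2.70). Hsp90b1, the ER chaperone GRP94, was at 7254 CPM against 262 in control callus and 4936 against 347 in GC callus. Manf, an ER stress protein, was at 1757 against 141 CPM in control callus. Sdf2l1, a partner of Hspa5 in folding, was at 571 against 8.90. Hspa5, the chaperone BiP, was at 1400 against 327, a smaller ratio than these. Ero1lb, an ER oxidase, was not higher, at 98.3 against 133 CPM. Atf4, the amino acid stress factor of the same response, had log2 ratios of only 0.50 and 0.42.

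Promoters of this list often hold the ER stress response element, which the factors ATF6 and NF-Y are known to bind. It was searched on both strands as CCAAT and CCACG with 9 bases of any kind between them, from 250 bases before to 50 after each start in RefSeq promoters (GRCm38.p6). It was found in 37 of 32851 promoters (0.113%) and in 8 of 26 matched ER folding promoters (30.8%), in 2 of 16 of plasma cell identity, and in 0 of the 33 of the ER translocon list. The windows of 6 of these genes are shown because their levels or ratios are given here (Ero1b is Ero1lb in the files), with CCAAT and CCACG in capitals, on the strand where the motif reads forward.
Hspa5 (chr2:34772013-34772055, plus): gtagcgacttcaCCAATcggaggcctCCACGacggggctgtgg
Hsp90b1 (chr10:86705521-86705563, plus): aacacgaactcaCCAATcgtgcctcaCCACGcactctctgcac
Pdia6 (chr12:17266479-17266521, plus): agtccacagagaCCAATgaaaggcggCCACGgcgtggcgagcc
Creld2 (chr15:88819508-88819550, minus): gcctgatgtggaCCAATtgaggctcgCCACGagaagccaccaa
Derl3 (chr10:75893230-75893272, minus): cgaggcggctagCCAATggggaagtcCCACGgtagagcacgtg
Ero1b (chr13:12565670-12565712, minus): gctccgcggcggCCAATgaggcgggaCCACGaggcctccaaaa
In control callus plasma cells against B cells, log2 ratios were 2.08 for Hspa5, 4.76 for Hsp90b1, 3.05 for Pdia6, 4.58 for Creld2, 5.76 for Derl3 and -0.42 for Ero1lb, so a gene with the motif was not always higher. A match of letters is no evidence of binding.

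The machinery that moves antibody chains into the ER and on to the Golgi was higher in a similar way. Of 38 genes of the ER translocon and transport to the Golgi, all were higher and 34 at least 2-fold higher in control callus (median log2 ratio 2.02). In GC callus 24 of 30 were (median 2.23). Sec11c, a signal peptidase subunit, was at 3771 CPM against 231 in control callus, Sec61b, part of the translocon channel, at 2868 against 267, and Ssr4, a translocon-associated protein, at 2647 against 140. In trabecular plasma cells Sec11c was at 2843 and 2507 CPM and Ssr4 at 3692 and 3125.

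Genes of amino acid supply showed a smaller difference, with 5 of 9 at least 2-fold higher in control callus (median log2 ratio 1.08) and 4 of 8 in GC callus (0.995). Slc7a5, the chain of the large neutral amino acid transporter, was at 393 CPM against 82.3 in control callus and 570 against 146 in GC callus. In trabecular plasma cells Slc7a5 was at 28.3 CPM (3.43 to 102) in control and 76.7 (43.8 to 125) in GC, below the intervals of both callus libraries. Its partner Slc3a2 went the other way, at 338 and 403 CPM in callus and 693 and 753 in trabecular bone.

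Homing and adhesion receptors were mostly lower in plasma cells than in B cells (median log2 ratios -1.67 and -1.30). Itga4, the alpha 4 integrin chain, was an exception at 927 CPM against 166 in control callus and 489 against 138 in GC callus. Cxcr4, the receptor for the marrow chemokine Cxcl12, was at 123 against 671 and 167 against 899. Ccr7, which guides cells to lymph nodes, had 1 UMI in control and 0 in GC plasma cells, and S1pr1, which directs exit from tissue, was at 117 against 540 and 86.3 against 645. Ccr10, a receptor of IgA cells for mucosal chemokines, had 31 UMIs in 11 control and 22 UMIs in 13 GC callus cells and 0 in B cells. Ccr9, the gut-homing receptor, was at 141 and 138 CPM in callus, but only in 5 and 6 cells, and 16 of its 24 GC callus UMIs lay in 6 cells with over 1% skeletal markers. The other 18 GC callus cells held Ccr9 at 64.6 CPM. It was at 28.3 and 4.79 CPM in trabecular bone.

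Of 10 survival genes measured in control callus, 2 were at least 2-fold higher in plasma cells, Tnfrsf17 and Tnfrsf13b. Another 3 were at least 2-fold lower, Birc3, Tnfrsf13c and Bcl2a1b (median log2 ratio 0.17). Over all genes of control callus 12.3% were higher and 28.4% lower, so these counts are near the shares of all genes. In GC callus all 3 measured were higher, 1 of them at least 2-fold, beside 20.9% of all genes. Mcl1, the survival factor of plasma cells, was at 473 CPM against 452 in control callus and 535 against 395 in GC callus. Tnfrsf13b, the TACI receptor, was at 473 against 52.3 and 276 against 29.8.

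Ranked by the mean log2 ratio over both callus libraries, the highest 10 genes were Slpi, Sdf2l1, Ly6c2, Mt1, Xbp1, Tent5c, Mzb1, Pdia4, Creld2 and Fam214a. Slpi, a secreted protease inhibitor, came first at 2567 CPM against 46.7 in control and 2284 against 41.0 in GC callus. It was in 8 of 21 and 10 of 24 cells, whereas Sdf2l1 was in 19 and 18. Mt1, a metal-binding metallothionein, was in 20 cells of each library, at 2457 against 92.3 CPM and 3601 against 63.4. The lowest 10 were Cd86, Ccr7, Apoe, Scd1, H2-Aa, B3gnt5, Rel, Ebf1, H2-Ob and Pde2a. Cd86, a costimulatory ligand, had 210 UMIs in control B cells and 100 in GC B cells and 0 in plasma cells of both, at least 12.7-fold and 21.6-fold lower.

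GC and control plasma cells of callus were compared over 1004 genes with at least 50 UMIs, of which 6.77% were at least 2-fold higher in GC and 4.28% at least 2-fold lower, with a median log2 ratio of -0.09. The balance depended on cells and scaling. Without 6 GC cells with over 1% skeletal markers 3.50% of 828 genes were higher and 5.56% lower, with the mean of each cell's CPM the shares were 6.67% and 6.87%, and with CPM of all UMIs 7.97% and 2.99%. Over all 1004 genes, 438 were higher in GC by any amount. Of plasma cell identity genes, 5 of 19 were higher by any amount (median -0.40), with 1 at least 2-fold higher and 3 at least 2-fold lower. Of ER folding genes 3 of 22 were higher (median -0.38), with 0 at least 2-fold higher and 3 lower, and of ER translocon genes 8 of 35 (median -0.32), with 0 and 1. Without cells of at least 3 Mki67 UMIs these medians were -0.52, -0.67 and -0.67, and without 6 GC cells with over 1% skeletal markers they were -0.13, -0.20 and -0.24, nearer to that of all genes (-0.06 then).

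**Figure D5:**
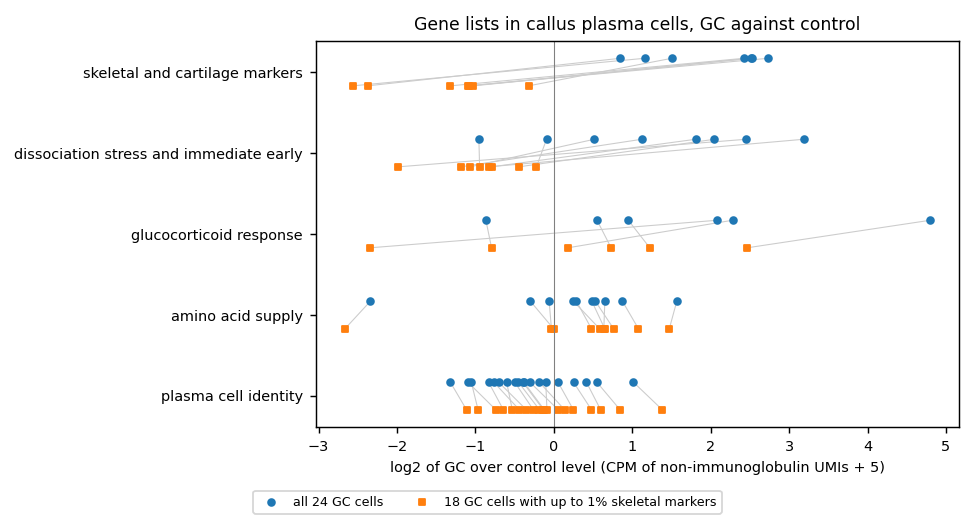
Each gene of the list on the y axis has a blue circle for its log2 ratio of GC over control level in all 24 GC callus plasma cells and an orange square for the 18 GC cells with up to 1% skeletal markers, joined by a line. Skeletal and most immediate early genes lie right of 0 with all cells and left of 0 without the other 6 cells, which were left out for their skeletal share, while amino acid and plasma cell identity genes move little.

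The 3 lists with the highest medians held skeletal, immediate early and glucocorticoid response genes. Skeletal and cartilage markers were at least 2-fold higher in GC for 6 of 7 genes (median log2 ratio 2.42). Immediate early genes such as Fos and Egr1 were so for 5 of 8 (median 1.46) and glucocorticoid response genes for 3 of 6 (median 1.52). The minimum of 50 UMIs was on both groups together, so genes such as Sgk1, with 53 UMIs in GC and 1 in control, passed through GC cells alone. The filter thus bears on these counts. With a minimum of 20 UMIs the medians were 1.16 over 10 immediate early genes and 0.98 over 11 glucocorticoid response genes. The 6 GC cells with over 1% skeletal markers held 49975 of the 173823 non-immunoglobulin UMIs of GC plasma cells. They held 94.2% of the UMIs of the skeletal list, 70.5% of the immediate early list and 34.2% of the glucocorticoid response list. The skeletal share chose these 6 cells, and no control cell was over 0.581%, so the skeletal median of -1.21 without them follows from that choice. Without them the immediate early median was -0.95, over the 3 genes that still had 50 UMIs, and the glucocorticoid response median 0.73, also over 3 genes. Summed over the whole glucocorticoid response list, the 18 other cells were at 6209 CPM against 3999 in control. The metallothioneins Mt1 and Mt2 held 5289 and 2973 CPM of these sums, and the other 18 genes were at 920 CPM against 1026.

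Genes of the glucocorticoid response list differed in this. Dusp1, a phosphatase, was at 276 CPM in GC and 61.4 in control plasma cells, but at 8.07 in the 18 GC cells. Sgk1, a kinase that glucocorticoids induce in many cells, had 53 UMIs in GC and 1 in control, of which 46 lay in the 6 cells, and the 18 others held 7 UMIs (ratio 9.20, 1.18 to 415). Mt1 and Mt2, metallothioneins, remained higher in the 18 cells with ratios of 1.66 (1.45 to 1.90) and 2.35 (1.79 to 3.10). In trabecular bone Mt1 was at 156 CPM in control and 566 in GC, and Mt2 at 84.9 and 76.7. Txnip, an arrestin-like protein, was lower with a ratio of 0.572 (0.359 to 0.889). Tsc22d3, the glucocorticoid-induced leucine zipper, was at 43.0 CPM in control and 109 in GC callus, under 50 UMIs in all, and at 792 and 489 in trabecular bone. Fkbp5, another target, had 4 and 11 UMIs in callus and 0 and 4 in trabecular bone.

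Other differences held without the 6 cells, by counting error alone. Slc38a2, a glutamine transporter, was at 498 CPM in control and 1389 in the 18 GC cells (ratio 2.79, 2.13 to 3.68), with UMIs in 21 of 21 and 16 of 18 cells. In B cells of callus Slc38a2 was also at 537 CPM in control and 1660 in GC. In trabecular plasma cells Slc38a2 was instead lower in GC, at 594 CPM (428 to 803) in control and 292 (224 to 376). Bcl2l11, the apoptosis promoter BIM, had a ratio of 3.02 (2.13 to 4.35) in callus and was at 99.0 and 52.7 CPM in trabecular bone. Xbp1 had a ratio of 1.51 (1.31 to 1.75) and Mzb1 one of 0.640 (0.566 to 0.722), so 2 leading plasma cell genes differed in opposite directions. Tnfrsf17 (0.454, 0.255 to 0.777) and Irf4 (0.594, 0.381 to 0.908) were lower in GC. Of the 73 Irf4 UMIs of control callus, however, a single cell held 16 and another 15. The Irf4 ratio without these cells was not tested.

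By the rule for named genes, the highest 5 were Sgk1, F13a1, Pcsk6, Rbp4 and Id3, and the GC cell with the most UMIs of each was the same one, with 29730 UMIs and 3.14% skeletal markers. It held 56 of 64 GC UMIs of Pcsk6, 44 of 47 of Rbp4, 42 of 46 of Id3, 29 of 50 of F13a1 and 24 of 53 of Sgk1. The lowest 5 were Plac8, Chac1, Pycard, Ly6a and Tspo. Pycard, the inflammasome adaptor ASC, had UMIs in 19 of 21 control and 12 of 24 GC cells, at 915 and 190 CPM. Chac1, a glutathione-degrading enzyme of the amino acid stress response, had 46 and 9 UMIs. For Plac8, 42 of 66 control UMIs came from 1 cell, and for Ly6a 45 of 112 from another. The spread between mice is not known for any of them.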

How the data were processed

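Single-cell RNA was measured in 4 libraries (10x Genomics). The authors deposited counts of UMIs for 32285 genes, unnormalized. The submitters' processing notes name Cell Ranger 5.0.1, Seurat 3.2.0 and mm10, whereas the matrix headers name Cell Ranger 4. The GC callus matrix lists 7762 barcodes, already called, and the others list 6794880. Columns of other samples numbered 0.

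Members, gene lists (19, of 291 genes, 1 of them not in the files) and comparisons were chosen with earlier results of these data known. Barcodes were filtered as described, without a doublet caller. CPM used summed counts without immunoglobulin genes (392) and Jchain, with a pseudocount of 5 CPM and a minimum of 50 UMIs. Intervals are exact at 95% (Clopper-Pearson, Poisson, or conditional for ratios). UMIs remove amplification copies, but intervals cover counting error only. Examples from lists are mainly members of most UMIs; named genes are the 10 highest and lowest of plasma over B cells and the 5 highest and lowest of GC over control, with at least 50 CPM in 1 class. Genes given outside this rule were chosen after their values were seen. Ratios needed 15 cells a library, so trabecular ratios, ratios between tissues, and IgA against other isotypes were left out. Where a list gene had 2 identifiers, the first was used. Sequences come from GENCODE M21 (GRCm38) and RefSeq (GRCm38.p6). Alternatives covered the Jchain, UMI, mitochondrial and Mzb1 thresholds, other cell types' markers, pseudocounts, minimum counts, denominators, thinning and V gene calls. Python 3.11.15, numpy 2.4.6, scipy 1.17.1, pandas 2.3.3 and matplotlib 3.10.9 were used, and scripts were tested on simulated data.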

Additional observations from a re-analysis of the deposited data

How the results depend on the processing

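No paired analysis was possible because each group is 1 library and the labels give no replicate numbers. Without replicates, a list median or a count of genes is stable when it moved by no more than a factor of 1.5, a single gene's log2 ratio when it moved by no more than 1, and other values when they stayed inside their counting interval; 450 of 488 values answering a comparison did. Trabecular values rest on 8 and 14 cells. Choosing cells by immunoglobulin and Mzb1, leaving out, each on its own, cells with at least 3 Mki67 UMIs, cells over 1% skeletal markers, or cells under 10% immunoglobulin with at most 3 Mzb1 UMIs, and B cells from 2 UMIs were alternatives chosen after seeing the data. The kappa share of GC callus was 95% without barcodes over 5% of another type's markers and without cells of low immunoglobulin and Mzb1, and 94.4% when chosen by immunoglobulin and Mzb1. Cycling cells were 33.3% of GC callus with 1 UMI enough, and 37.5% of GC callus and 35.7% of GC trabecular bone without thinning. A V gene call from 10 UMIs left 28 cells with both chains.

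Plasma over B cells, the median of B cell identity in control callus was -2.57 with a minimum of 200 UMIs and -2.90 with a pseudocount of 20 CPM. In GC callus, ER folding was 1.89 with a minimum of 20 UMIs, and ER translocon was 3.21 and plasma cell identity 4.47 with 200. GC over control, the immediate early median was 0.40 as a mean of each cell's CPM. The glucocorticoid response median was 0.81 with Jchain at 1% and 0.92 without barcodes over 5% of another type's markers, and the skeletal median 1.70 and 1.33. Without cells over 1% skeletal markers, the medians were -0.95 (immediate early), 0.73 (glucocorticoid response) and -1.21 (skeletal), and single genes turned to -2.34 (Dusp1), -0.83 (Egr1), -1.98 (Fos), -0.79 (Fosb), -0.48 (Id3), -0.45 (Ier2), -1.19 (Jun), -0.48 (Pcsk6) and -0.15 (Rbp4). The skeletal value follows from how those cells were chosen, and the cause of the other shifts was not tested. Genes at least 2-fold higher and lower in plasma than in B cells numbered 420 and 972 in control callus, 704 and 1789 with a minimum of 20 UMIs, 85 and 199 with 200 (other numbers of genes tested) and 240 and 1472 with CPM of all UMIs. In GC callus they numbered 287 and 267, and 686 and 690, 49 and 26, and 198 and 403 under these settings, with 187 higher without cells of at least 3 Mki67 UMIs. GC over control, 68 and 43 became 231 and 133 and 13 and 8 with these minimums, 69 were lower by the mean of each cell's CPM, and 29 were higher without cells over 1% skeletal markers. Of 288 values of single genes or levels, 31 more moved without a change of direction.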

Other observations

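Some genes stood at different levels in plasma cells of callus and of trabecular bone in both treatments, in values without a test that were chosen after they were seen. Klf2, a transcription factor of lymphocyte trafficking, was at 344 CPM in control callus and 322 in GC callus, and at 2391 and 1989 CPM in trabecular bone. In GC callus 45 of the 56 Klf2 UMIs lay in the 6 cells with over 1% skeletal markers, and the other 18 cells were at 88.8 CPM, 0.258 times the control level (0.122 to 0.498). Trabecular B cells had Klf2 at 955 and 2932 CPM. Itga4 went the other way, at 927 and 489 CPM in callus and 184 and 101 in trabecular bone. Cd28, a costimulatory receptor that plasma cells also carry, was at 190 and 167 CPM in callus and at 354 and 76.7 in trabecular bone, so treatment and tissue gave no common order. Summed over cells, trabecular plasma cells held more neutrophil and erythroid transcripts, and single cells weighed on these sums, as given above. The immediate early list, which also holds genes of dissociation stress, differed between the tissues too. Its 16 genes summed to 3298 and 4539 CPM in control and GC callus plasma cells, and to 24601 and 16426 CPM in trabecular ones. The part of these transcripts, or of what raised them, in the levels of Klf2, Itga4 and Cd28 was not tested.

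The 14 interferon-stimulated genes listed summed over the plasma cells of a library to 399 CPM in control callus, 334 in GC callus and 1075 and 666 in control and GC trabecular bone, and 5 to 7 of them had a UMI. Ifi44, Ifit1, Oas1a and Usp18 were at 0 in every library. Only Bst2 passed the minimum in callus, with a GC over control log2 ratio of -1.06.

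In GC callus, 7 barcodes with at least 5 Jchain UMIs stayed under 0.5%. Of these, 5 had 5 to 10 UMIs of lambda constant genes, 0 to 2 of Igkc and under 1% immunoglobulin. The 4 plasma cells of that library with the most skeletal markers likewise had more Iglc1 than Igkc, although Igkc held 96.9% of light constant UMIs over its plasma cells.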
